A study of Mus musculus with 21 samples.

Results

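The cytosolic ribosomal protein genes were followed across 7 groups of C2C12 cells, a mouse myoblast line. Members were all genes whose symbol is Rpl or Rps followed by a digit, or Rplp0, Rplp1, Rplp2 or Rpsa, without the Rps6k kinases and without pseudogene symbols. This took in 65 of the gene symbols on the array, and 61 of them, 36 of the large subunit and 25 of the small subunit by symbol, passed the filter on dim probes and were tested among 13585 genes. The other 4 (Rpl17, Rpl39l, Rps23 and Rps4l) had no probe above background in at least 3 arrays and are accounted for only by name. The symbol rule also takes in Rps19bp1 and Rps23rg1, which are not ribosomal proteins, and both were kept in the counts. Of 89 protein-coding RefSeq symbols that fit the rule, 64 had a probe with a single gene symbol here, and others such as Rpl5, Rpl11, Rpl7 and Rps27 were not analysed here.

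RNA was measured on Illumina mouse bead arrays from 3 replicates of each group. The knockdown (KD) groups were myotubes (MTs) of stable lentiviral lines carrying shRNA against NET39, TMEM38A, WFS1 or TMEM214, nuclear envelope transmembrane proteins of muscle, and were set against MTs of a control shRNA line, all selected with puromycin. Untransduced MTs and untransduced proliferating myoblasts (MBs), neither carrying virus, were the remaining groups. MTs of all lines were taken at day 6 in 2% serum, after tetrodotoxin had been added to stop contraction and after partial trypsinization to enrich for MTs, and MBs were taken at day 0 in 20% serum. The control is a non-target shRNA by its labels and an empty vector by a file header and by the paper's figure legends, so what that line carried is not settled. Each targeted gene was lower in its own KD line than in control shRNA MTs with no overlap, at 6.62 to 6.98 against 8.45 to 8.67 for Plpp7, the gene of NET39, 6.48 to 6.60 against 10.93 to 11.13 for Tmem38a, 6.37 to 6.44 against 10.45 to 10.71 for Wfs1 and 6.98 to 7.14 against 8.19 to 8.23 for Tmem214 (log2 signal of the arrays, log2 ratios of -1.79, -4.45, -4.17 and -1.17 in that order, limma). In bulk samples such as these, fewer cells of a type and less RNA per cell cannot be told apart.

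A ribosome has a small subunit, which reads the mRNA, and a large subunit, which joins the amino acids, and each carries a set of proteins that are needed in equal numbers. Growing and dividing cells make them in large amounts. Most of their mRNAs begin with a run of pyrimidines, the terminal oligopyrimidine (TOP) motif, through which mTORC1 and Larp1 control their translation. In striated muscle a few ribosomal proteins are partly replaced by paralogues, of which Rpl3l, which takes the place of Rpl3, is the best known.

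The start regions of these genes were read in 300-base windows from RefSeq (assembly GRCm38.p6) for 52 of the 61 genes. A long run was at least 8 letters, each C or T, that overlapped the stretch from 25 bases before to 50 after the annotated start. One was present in 39 of the 52 (75.0%), against 31.9% of the 10936 genes tested that have a window. A C followed by at least 4 letters of C or T, at the annotated start itself, was present in 9 of the 52 (17.3%, against 2.93%). A gene with several annotated starts was counted if any of them fitted, here and for the motifs below. The motif CCGGAAG on either strand anywhere in the window was present in 22 of the 52 (42.3%, against 17.2% of all genes), and CAGCTG, an E-box that reads the same on both strands, in 3 (5.77%, against 18.4%). These matches are descriptions of letters and not of binding sites. The following 30-base stretches are shown for genes that the results below turn on, 5′ to 3′ on the gene's own strand, with the longest run of C and T in capitals.
Rpl13a (chr7:45128722-45128751, minus strand): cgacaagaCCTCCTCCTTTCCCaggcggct
Rpl7a (chr2:26910788-26910817, plus strand): cacaaTTCCCTCTTCTTTCTTTCTCCagca
Rps6 (chr4:86857349-86857378, minus strand): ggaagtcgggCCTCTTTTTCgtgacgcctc
Rps15 (chr10:80292446-80292475, plus strand): gcagcccgtaCTTCCTTTTCCgagtaaccg
Rpl22l1 (chr3:28805499-28805528, plus strand): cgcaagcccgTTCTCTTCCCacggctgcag
Rplp0 (chr5:115559466-115559495, plus strand): aggaccgcctggTTCTCCTataaaaggcac
Rps3 (chr7:99483720-99483749, minus strand): tgcaaaacttcaTTTCCCatgaacacttgc
Rps3a1 (chr3:86142623-86142652, minus strand): acgtagacggcgCTCCCCgcccggctcgcg
Rpl3l (chr17:24727846-24727875, plus strand): tggtggggaggCCCCTTCCTaacctgcagg
The run spans 21 bases in Rpl7a, 14 in Rpl13a, 11 in Rps15 and 10 in both Rps6 and Rpl22l1. In Rplp0 it spans 7 and in both Rps3 and Rps3a1 it spans 6. The annotated start can lie away from the base where transcription begins, so a short run in the window does not show that the mRNA lacks the motif. Nor does a long run in the window show that the mRNA begins with it. In MTs relative to MBs the 39 genes with a long run had a median log2 ratio of -0.36 and the 13 without one had 0.02. The order was the same in NET39 KD and TMEM38A KD, and the reverse in control shRNA MTs against untransduced MTs. The genes with a long run had medians of -0.11 in control shRNA MTs against untransduced MTs, 0.28 in NET39 KD and 0.04 in TMEM38A KD, and those without one had -0.39, 0.38 and 0.18 in the same order. In WFS1 KD both medians were 0.06 and in TMEM214 KD both were 0.20. None of these differences was tested.

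All levels are log2 of the background-corrected and quantile-normalized signal of the brightest probe of a gene. A gene was called when its adjusted p was below 0.05 and its log2 ratio was above 0.5 in size, with limma's moderated test fitted on all genes and Benjamini-Hochberg adjustment. Of the 61 genes, 51 had a mean level of 9 or more over all 21 arrays. The other 10 (Rpl14, Rpl21, Rpl22l1, Rpl3l, Rpl6, Rps15a, Rps19bp1, Rps20, Rps23rg1 and Rpsa) lay below 9, where a probe's response is flatter. The median level of the 61 genes was 12.82 ± 0.04 in NET39 KD MTs, 12.59 ± 0.08 in TMEM38A KD, 12.63 ± 0.05 in WFS1 KD, 12.75 ± 0.09 in TMEM214 KD, 12.48 ± 0.18 in control shRNA MTs, 12.69 ± 0.20 in untransduced MTs and 13.08 ± 0.04 in untransduced MBs (mean ± SD of the array medians, n = 3 each). MBs thus stood highest and control shRNA MTs lowest, and among the MT groups those of NET39 KD stood highest. As a share of the summed signal of all genes tested, the 61 genes made up 6.90% ± 0.08 in NET39 KD, 5.94% ± 0.22 in TMEM38A KD, 6.14% ± 0.13 in WFS1 KD, 6.48% ± 0.10 in TMEM214 KD, 5.77% ± 0.52 in control shRNA MTs, 5.87% ± 0.50 in untransduced MTs and 7.07% ± 0.19 in MBs.

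Before any comparison, several arrays need a remark. MB replicate 1 lay more than 1 on the log2 scale from the mean of the other 2 MB arrays in 647 genes, 4 of them members, where MB replicates 2 and 3 lay that far from each other in 19 genes and no member. Those members were Rps3a1, higher there by 2.46, Rpl22l1, higher by 1.93, Rps3, higher by 1.53, and Rps19bp1, at -1.10. NET39 KD replicate 3 was lower than replicates 1 and 2 in Rpl22l1 (by 1.28 on the log2 scale), Rps3a1 (1.25), Rpl29 (0.65) and Rps3 (0.47). Untransduced MT replicate 3 was the low array of its group for several genes, by 1.40 in Rpl38, 1.30 in Rps29, 0.96 in Rps21 and 0.81 in Rplp2. Among the control shRNA arrays, against which every KD is compared, replicate 1 was the highest for 43 of the 61 genes and replicate 2 the lowest for 39, and the 61 genes made up 6.33% of the signal in replicate 1, 5.29% in replicate 2 and 5.70% in replicate 3. The scanner signal averaged 301 to 533 on the 15 shRNA arrays and 172 to 289 on the 6 untransduced ones, so transduction and brightness of the arrays cannot be told apart.

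**Figure D1:**
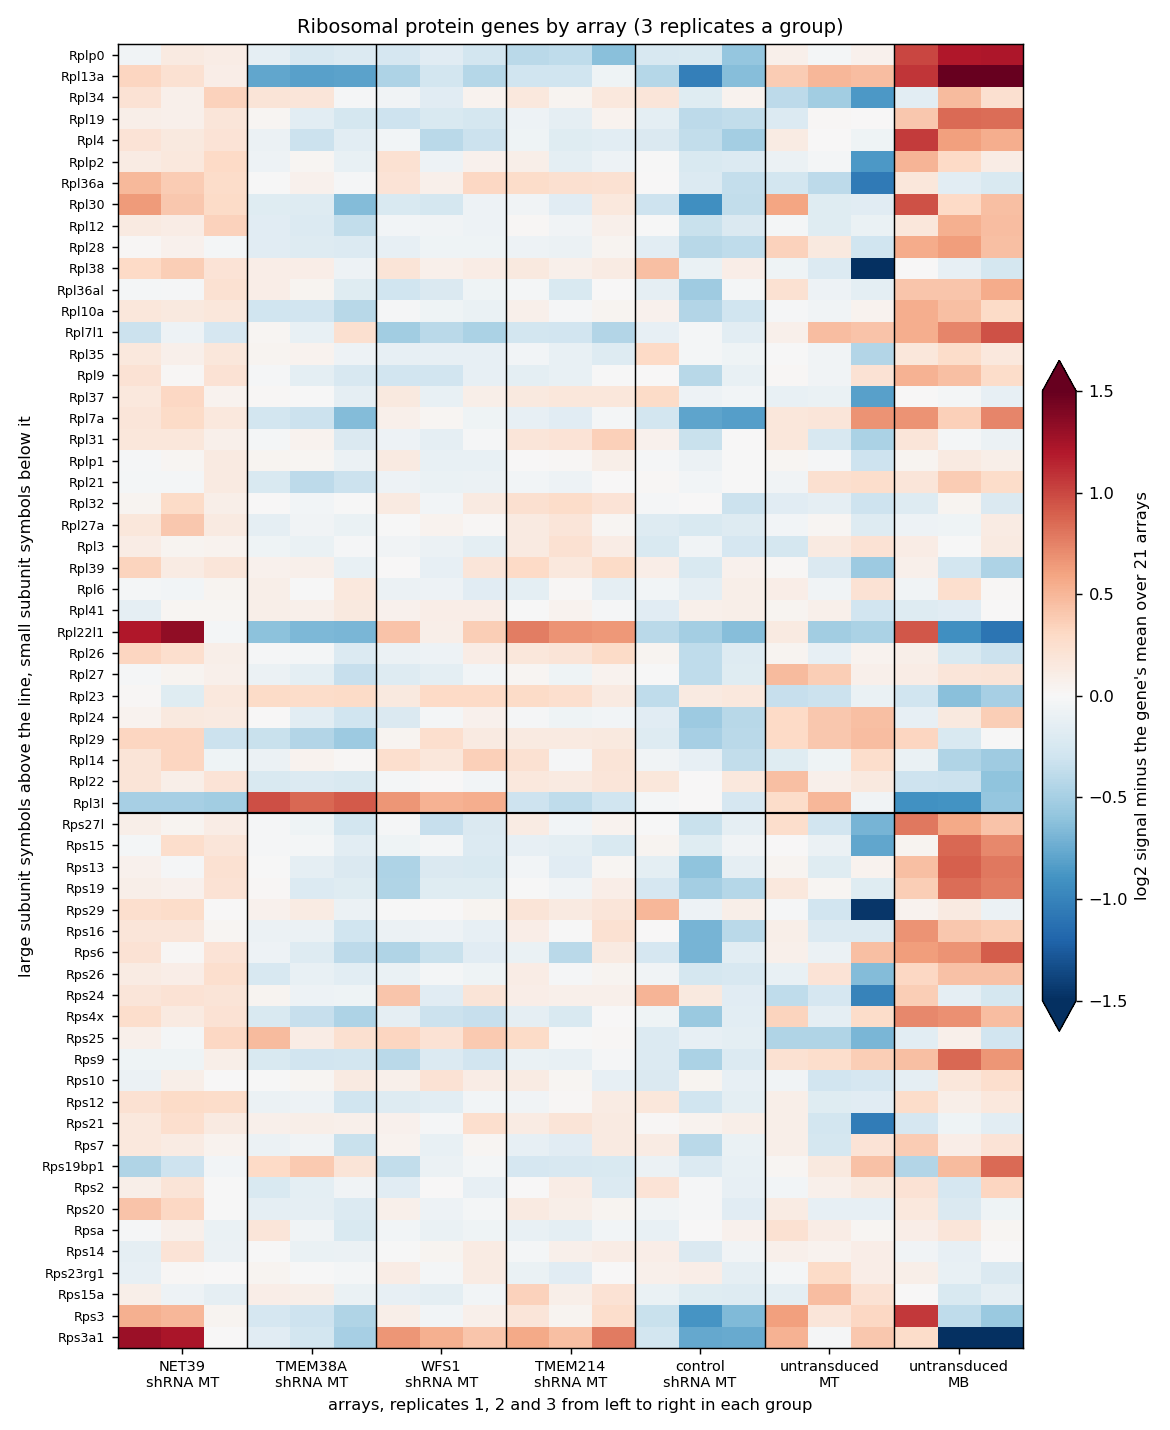
Log2 signal of each of the 61 genes minus its own mean over 21 arrays (colour), with genes down the page, large subunit above the line and small subunit below it, and arrays across in groups of 3. The MB columns on the right are red for most genes, Rps3a1, Rpl22l1 and Rps3 differ between MB replicate 1 and the other MB arrays, and MT replicate 3 is blue for Rpl38 and Rps29.

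How ribosomal protein genes changed in normal myogenesis was asked by comparing untransduced MTs with MBs. The genes were mostly lower in MTs. Of the 61, 16 (26.2%) were called lower and 3 (4.92%) higher, where 16.4% of all genes tested were called lower and 14.6% higher. Their median log2 ratio was -0.27 against -0.02 for all genes, and 43 of the 61 ratios were negative. MT and MB arrays did not overlap, with MTs lower, for 25 of the 61 genes (41.0%, against 23.0% of all genes) and, with MTs higher, for 3 (4.92%, against 18.0%). All 16 lower calls lay among the 51 brighter genes, whose median was -0.37. Under median scaling 39 of the 61 genes were called lower, where 22.5% of all genes were. The median of the 61 was -0.85 there, against -0.08 for all genes. Under cyclic loess 37 were called lower, with a median of -0.70, but the share and median of all genes under it are not given here. Large subunit genes had 7 of 36 called lower and small subunit genes 9 of 25, with medians of -0.23 and -0.29.

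Rplp0, the base of the stalk on the large subunit that recruits translation factors, had the largest decrease. Its levels were 9.23, 9.13 and 9.22 in MTs, against 10.16, 10.36 and 10.37 in MBs, a log2 ratio of -1.11 (SE 0.10, adjusted p = 1.15e-08). The groups were wide apart, although Rplp0 has a second and dimmer probe whose log2 ratio was 0.23 (adjusted p = 0.489), so its probes disagreed. Rpl13a, a large subunit protein that in human cells also silences inflammatory mRNAs when released, had 10.42, 10.54 and 10.50 in MTs and 11.11, 11.69 and 11.63 in MBs, a log2 ratio of -0.99 (SE 0.14, adjusted p = 8.34e-06). Every MT array again lay below every MB array.

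Rps15, a small subunit protein near the decoding site, had 12.12, 12.03 and 11.33 in MTs against 12.16, 12.98 and 12.84 in MBs (log2 ratio -0.84, adjusted p = 0.000878). The highest MT array came close to the lowest MB array. Rps27l, a paralogue of Rps27 that p53 induces in human cells, had 12.77, 12.21 and 11.80 in MTs against 13.29, 13.07 and 12.93 in MBs (log2 ratio -0.84, adjusted p = 0.000346). Rpl34 had 12.12, 12.00 and 11.66 in MTs against 12.36, 12.99 and 12.76 in MBs (log2 ratio -0.78, adjusted p = 0.000142). In both genes the groups did not overlap, and MT replicate 3 was the lowest array.

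Rps6, the small subunit protein that S6 kinases phosphorylate downstream of mTORC1, had 12.42, 12.25 and 12.79 in MTs and 12.97, 13.01 and 13.25 in MBs (log2 ratio -0.59, SE 0.16, adjusted p = 0.00458). Other genes called lower were Rpl19, Rps13, Rpl4, Rps19, Rplp2, Rps29, Rps16, Rps26, Rps24 and Rpl36a, with log2 ratios from -0.76 (Rpl19) to -0.50 (Rpl36a). In Rps29 and Rps24 the groups overlapped, although the dimmer probes of Rps24 had larger decreases, at -1.78 and -0.87, and without MT replicate 3, the low array in both, 12 genes were called lower and Rpl36a was no longer among them (adjusted p = 0.0809). Of the other landmarks, Rpl32, a large subunit protein often used as a reference for RNA amounts, had 13.17, 13.20 and 13.03 in MTs against 13.14, 13.38 and 13.12 in MBs, a log2 ratio of -0.08 that was not called.

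The genes that were higher in MTs were Rps3a1, Rpl3l and Rpl22. Rps3a1, the mouse gene for the small subunit protein Rps3a, had 10.77, 10.24 and 10.66 in MTs against 10.53, 8.24 and 7.89 in MBs, a log2 ratio of 1.67 (SE 0.45, adjusted p = 0.00479). MB replicate 1 lay within the range of the MT arrays, and the other MB arrays lay below all of them. In a fit without that array, which was chosen after seeing the data, the log2 ratio of Rps3a1 was 2.49 (SE 0.26, adjusted p = 8.44e-08), 7 genes were called higher, namely Rps3a1, Rpl3l, Rps3, Rpl22l1, Rpl22, Rpl14 and Rpl29, and 14 were called lower.

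Rps3, a small subunit protein at the mRNA entry channel that also acts in DNA repair, showed the same single array out of place. Its levels were 12.53, 12.10 and 12.23 in MTs and 12.98, 11.53 and 11.36 in MBs, with a log2 ratio of 0.33 that was not called with all arrays and 0.85 (adjusted p = 8.52e-05) without MB replicate 1. A second probe of Rps3 had a log2 ratio of 1.10 with all arrays (adjusted p = 0.073).

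Markers of dividing cells moved with these genes in myogenesis. Of 10 such genes tested, 8 were called lower in MTs, and their summed signal was 1112 to 1482 in MTs against 14705 to 17507 in MBs. All 11 muscle differentiation genes tested were called higher, with a summed signal of 109801 to 113064 in MTs and 1202 to 1272 in MBs. The part of cell division in the ribosomal protein result was not tested.

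**Figure D2:**
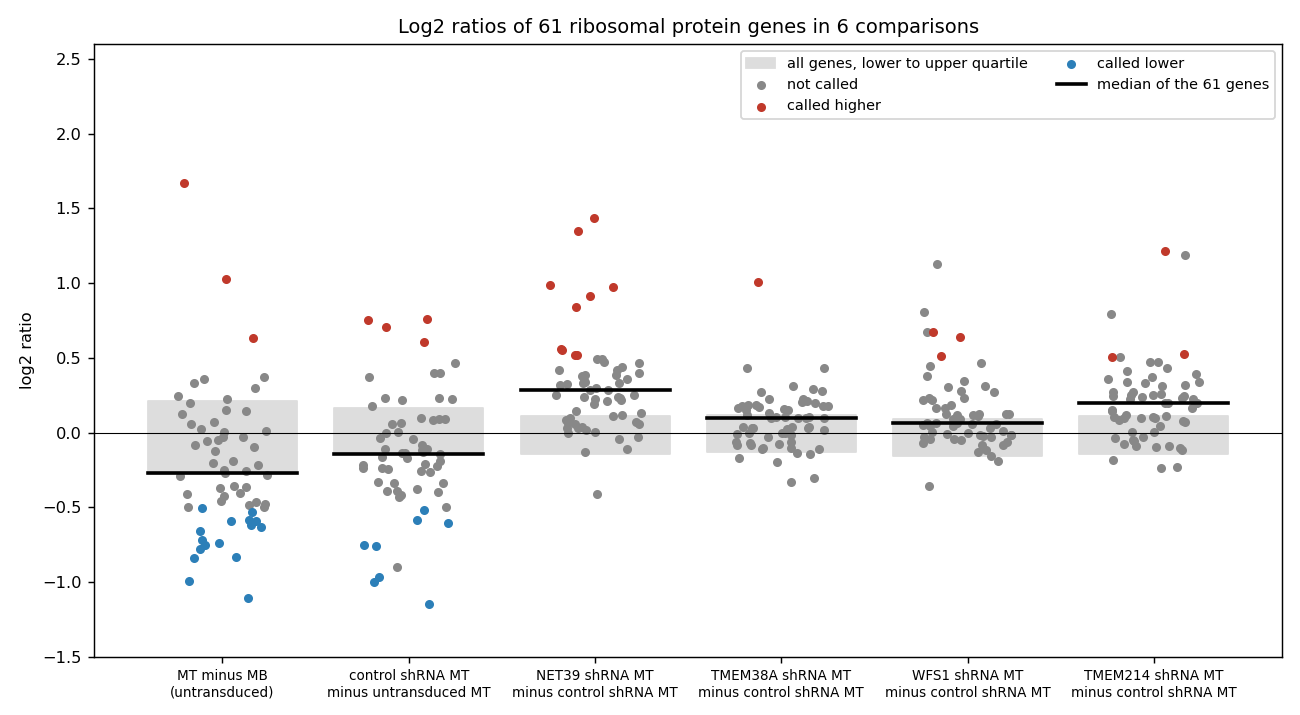
Log2 ratio of each of the 61 genes (points, spread sideways for legibility) in 6 comparisons, with called genes coloured, the median of the 61 as a black bar and the lower to upper quartile of all genes tested as a grey box. The median bar lies at -0.27 for MT minus MB, at the lower edge of the grey box, and at 0.28 for NET39 KD minus control, above the box.

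Paralogues were treated separately because they can exchange in the ribosome. Rpl3l, which replaces Rpl3 in striated muscle, had the largest moderated F over the shRNA lines of any member. Its levels were 6.31, 6.30 and 6.28 in NET39 KD MTs, 7.77, 7.66 and 7.72 in TMEM38A KD, 7.47, 7.32 and 7.35 in WFS1 KD and 6.49, 6.42 and 6.50 in TMEM214 KD. In control shRNA MTs they were 6.77, 6.81 and 6.55, in untransduced MTs 7.08, 7.30 and 6.75, and in MBs 5.90, 5.91 and 6.22. TMEM38A KD thus stood above every other group, WFS1 KD above both kinds of control MTs, and NET39 and TMEM214 KD below the control shRNA MTs, with no overlap in any of these.

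The differences in Rpl3l were larger than the spread between replicates in several comparisons. MTs exceeded MBs by a log2 ratio of 1.03 (2.04-fold, SE 0.11, adjusted p = 2.87e-07), with 1 of 3 MB arrays above background. TMEM38A KD exceeded control shRNA MTs by 1.01 (2.01-fold, adjusted p = 2.17e-06) and WFS1 KD by 0.67 (1.59-fold, adjusted p = 0.00028). NET39 KD was lower by a ratio of -0.41 (adjusted p = 0.0146), which passed the p threshold but not the limit on size, and TMEM214 KD by -0.24 (adjusted p = 0.169), which passed neither. Control shRNA MTs against untransduced MTs gave -0.33 (adjusted p = 0.0405), also short of the limit. The summed signal of muscle differentiation markers was 110923 to 114107 in TMEM38A KD and 103908 to 112861 in WFS1 KD. In control shRNA MTs it was 84867 to 100541. Of 11 such genes, 3 were called higher and 3 lower in TMEM38A KD, and 2 higher and 1 lower in WFS1 KD. The median log2 ratio of these genes was 0.14 in TMEM38A KD and -0.04 in WFS1 KD. Their part in the Rpl3l result was not tested. For WFS1 KD the call of Rpl3l was lost under median scaling (0.50, adjusted p = 0.0224) and against untransduced MTs (0.34, adjusted p = 0.0286).

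Rpl3 itself had 13.82, 13.74 and 13.76 in NET39 KD, 13.64, 13.60 and 13.68 in TMEM38A KD, 13.65, 13.62 and 13.56 in WFS1 KD, 13.84, 13.93 and 13.81 in TMEM214 KD and 13.47, 13.65 and 13.45 in control shRNA MTs. It was called in no comparison, and in myogenesis its log2 ratio was -0.05, with 13.44, 13.84 and 13.92 in MTs and 13.81, 13.70 and 13.84 in MBs. Its ratios to the control were all between 0.09 (WFS1 KD) and 0.34 (TMEM214 KD), so both genes had positive ratios in TMEM38A and WFS1 KD and opposite signs in NET39 and TMEM214 KD.

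Rpl22l1, a paralogue that Rpl22 represses in mice, had 8.35, 8.48 and 7.13 in NET39 KD, 6.54, 6.48 and 6.47 in TMEM38A KD, 7.58, 7.24 and 7.52 in WFS1 KD, 7.92, 7.83 and 7.81 in TMEM214 KD and 6.75, 6.64 and 6.52 in control shRNA MTs. All arrays of the NET39, WFS1 and TMEM214 KDs lay above all control arrays, and the TMEM38A KD arrays overlapped them. Untransduced MTs had 7.29, 6.63 and 6.68 and MBs 8.08, 6.23 and 6.06. Rpl22, an RNA-binding protein of the large subunit, had 10.68, 10.30 and 10.37 in MTs and 9.92, 9.91 and 9.62 in MBs, a log2 ratio of 0.63 (SE 0.09, adjusted p = 1.19e-05) with no overlap. In TMEM38A KD it had 10.00, 10.02 and 10.00 against 10.40, 10.23 and 10.38 in control shRNA MTs, all lower, with a log2 ratio of -0.33 (adjusted p = 0.0165) that was short of the limit on size.

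Rpl36a, an X-linked large subunit gene, had 12.76, 12.66 and 12.55 in NET39 KD against 12.29, 12.08 and 11.92 in control shRNA MTs (log2 ratio 0.56, adjusted p = 0.0146). Its paralogue Rpl36al had 12.41, 12.42 and 12.67 in NET39 KD against 12.30, 11.90 and 12.41 in the control, which overlapped. Rpl7l1 had 9.12, 9.23 and 9.16 in WFS1 KD against 9.51, 9.61 and 9.48 in the control, all lower, with a log2 ratio of -0.36 (adjusted p = 0.0396) that was short of the limit. Rpl39, the partner of Rpl39l, had ratios between -0.03 (myogenesis) and 0.27 (TMEM214 KD) and was not called. Rps4x, the partner of Rps4l, had 13.29, 13.17 and 13.25 in NET39 KD against 12.97, 12.47 and 12.87 in the control, with no overlap and a log2 ratio of 0.47 (adjusted p = 0.017), again short of the limit.

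**Figure D3:**
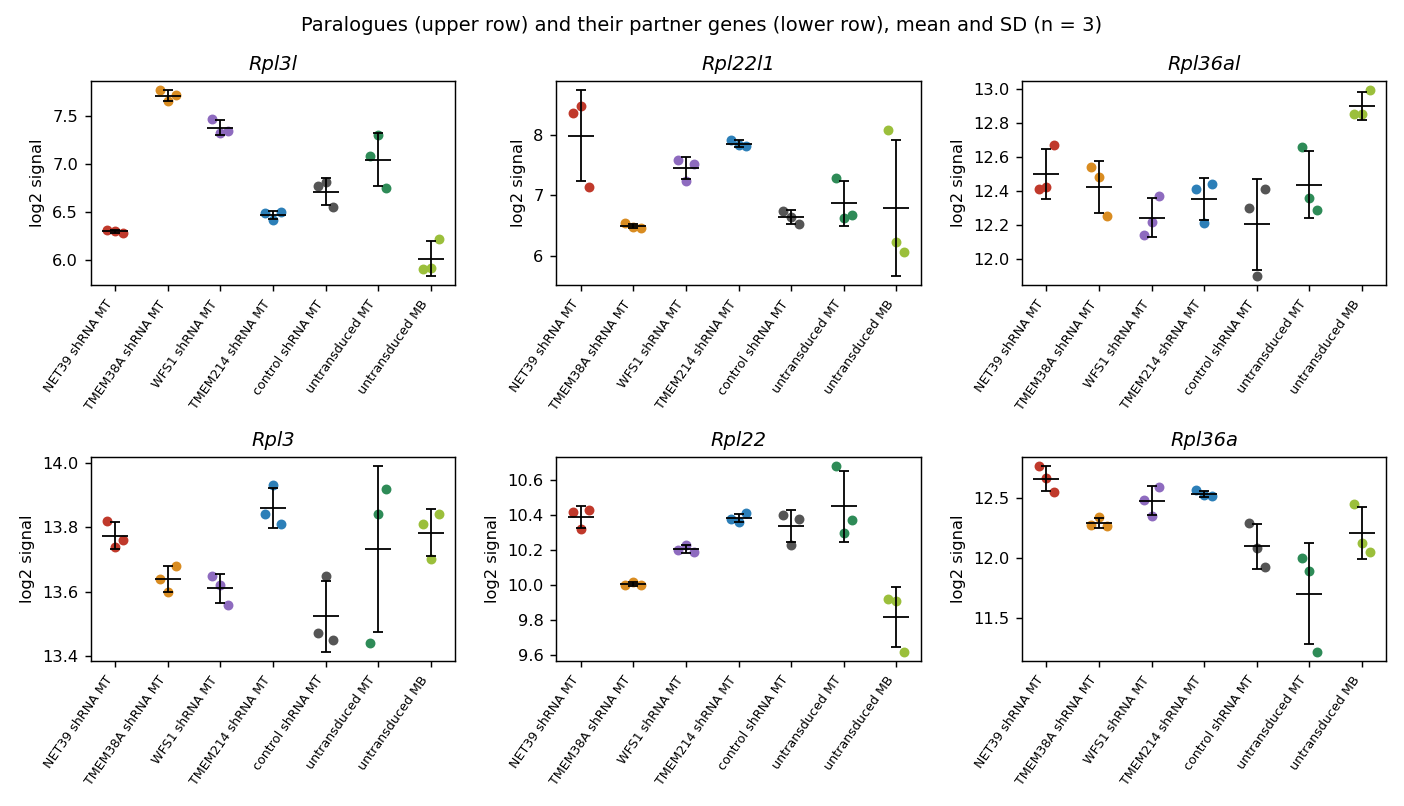
Log2 signal by array (points), mean and SD (bars, n = 3) for 3 paralogues in the upper row and their partner genes in the lower row, by group. Rpl3l is highest in TMEM38A KD (7.66 to 7.77) and lowest in MBs (5.90 to 6.22), while Rpl3 lies between 13.44 and 13.93 in all groups.

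What transduction and selection alone did was asked by comparing control shRNA MTs with untransduced MTs, and here the direction of the family depended on the scaling. With quantile normalization 8 of the 61 genes (13.1%) were called lower and 4 (6.56%) higher, where 5.51% and 5.98% of all genes were, and the median was -0.14 against 0.00. Under median scaling of the arrays the median of all genes moved to 0.50 and 99.8% of all calls were higher. There 48.3% of all genes were called higher and 0.0736% lower, and 47 ribosomal protein genes were called higher and none lower. Their median there was 0.99, which is 0.49 above that of all genes, so even relative to the other genes the sign was opposite. Values that follow are those with quantile normalization.

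Rpl13a had 9.61, 9.01 and 9.40 in control shRNA MTs against 10.42, 10.54 and 10.50 in untransduced MTs (log2 ratio -1.14, SE 0.14, adjusted p = 1.33e-05, but 0.26 under median scaling). Rps3 had 11.58, 11.03 and 11.25 in control shRNA MTs against 12.53, 12.10 and 12.23 in untransduced MTs (log2 ratio -1.00, adjusted p = 0.0125, but 0.41 under median scaling). Rpl7a, a large subunit protein whose gene hosts several small nucleolar RNAs, had 10.82, 10.30 and 10.26 against 11.26, 11.27 and 11.76 in untransduced MTs (log2 ratio -0.97, adjusted p = 0.000123, but 0.46 under median scaling). None of these overlapped between the groups. Rps3a1 was not called, with 9.98, 9.49 and 9.50 in control shRNA MTs against 10.77, 10.24 and 10.66 in untransduced MTs, although the groups did not overlap there either.

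Rpl24, a protein near the subunit interface, and Rpl29 were each lower in control shRNA MTs by 0.76 and 0.75 on the log2 scale with quantile normalization (adjusted p = 0.000113 and 0.00101), and higher by 0.63 and 0.65 under median scaling. Rpl30, Rps9 and Rps6 were also called lower. Genes called higher were Rps29, Rpl38, Rps24 and Rpl34, and MT replicate 3 was the lowest array in each. A dimmer probe of Rps24 went the other way, at -0.74. Rpl38, which in mice is needed for normal patterning of the axial skeleton, had 14.07, 13.52 and 13.72 in control shRNA MTs against 13.55, 13.42 and 12.09 in untransduced MTs, and Rps29 had 14.46, 13.88 and 14.05 against 13.94, 13.67 and 12.50. Without MT replicate 3 no ribosomal protein gene was called higher and 9 were called lower. Without control shRNA replicate 1 a single gene was called higher, without control replicate 2 there were 4 called lower, and without MT replicate 1 there were 7 called higher. Cell type markers also moved with this comparison. With quantile normalization 5 of 11 genes of undifferentiated myoblasts were called lower in control shRNA MTs and 1 higher, with sums of 2151 to 2306 in control shRNA MTs against 2685 to 2997 in untransduced MTs. Of 5 fibroblast genes 2 were called lower, with sums of 884 to 1040 in control shRNA MTs against 1822 to 2018 in untransduced MTs, and of 10 genes of dividing cells 2 were called lower, with 1037 to 1096 against 1112 to 1482. Muscle differentiation sums were 84867 to 100541 in control shRNA MTs and 109801 to 113064 in untransduced MTs. Under median scaling the median log2 ratios of these lists were above 0, at 0.06 for undifferentiated myoblasts, 0.53 for fibroblasts, 0.13 for dividing cells and 1.05 for muscle differentiation. Their part in the ribosomal protein result was not tested.

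**Figure D4:**
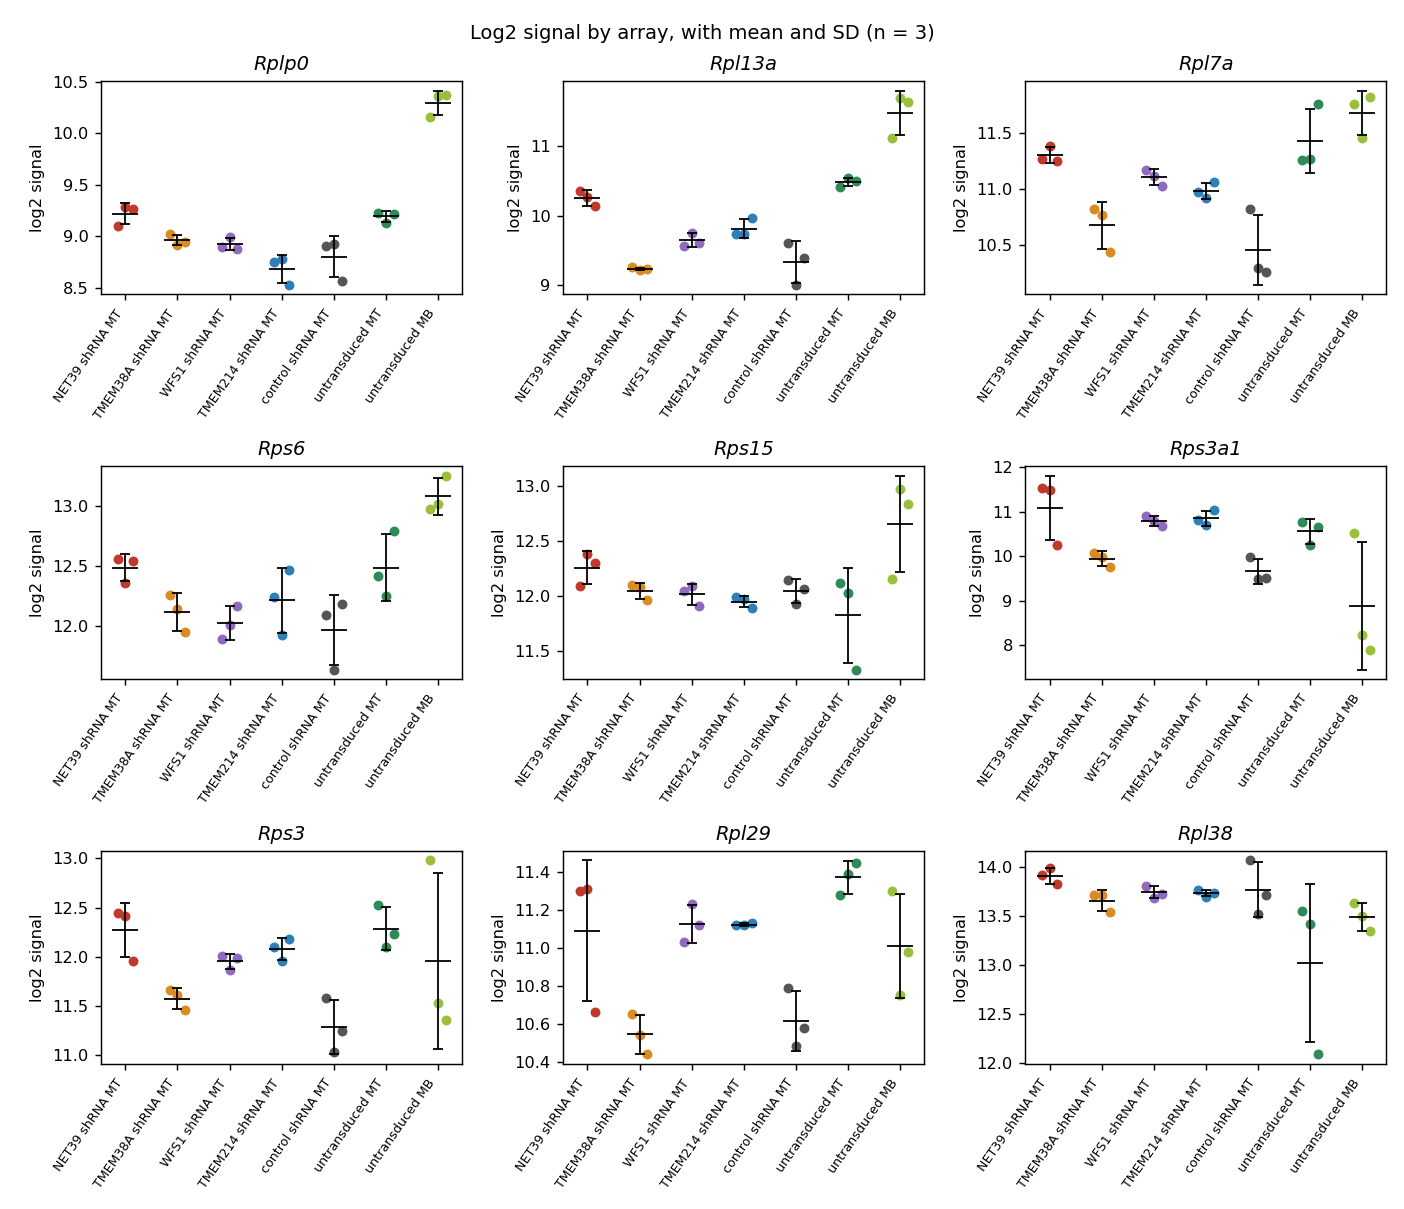
Log2 signal by array (points), mean and SD (bars, n = 3) for 9 genes by group. Rplp0 and Rpl13a are highest in MBs, Rps3a1 and Rps3 differ by over 1 between MB replicate 1 and the other MB arrays, and Rpl38 is low (12.09) in MT replicate 3.

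The question for each KD was whether its MTs differed from control shRNA MTs. The genes were mostly higher in NET39 KD MTs. Of the 61 genes, 10 (16.4%) were called higher and none lower, where 4.95% and 4.39% of all genes were called higher and lower, and the median was 0.28 against -0.02. In all, 55 of 61 ratios were positive (45.6% of all genes), and the 3 KD arrays lay above the 3 control arrays for 34 of the 61 (55.7%, against 17.2% of all genes) and below them for 1, Rpl3l (1.64%, against 21.8%). At the adjusted p alone, limma gave 24 genes higher, against 7.73% of all genes, and 1 lower, again Rpl3l, against 9.53% of all genes. Under median scaling the median was 0.31 against 0.01 for all genes, with 4 calls higher, where 4.67% of all genes were called higher. Under cyclic loess the median of the 61 genes was 0.35 with 13 calls, and in the authors' deposited values 0.26 with 9. For cyclic loess and the deposited values the medians and shares of all genes are not given here. The direction was the same under each setting, but under median scaling the share of calls was near that of all genes.

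The largest ratios in NET39 KD belonged to Rps3a1 and Rpl22l1. Rps3a1 had 11.53, 11.48 and 10.26 in NET39 KD against 9.98, 9.49 and 9.50 in control shRNA MTs (log2 ratio 1.43, SE 0.45, adjusted p = 0.0343). Rpl22l1, whose levels are given above, had a log2 ratio of 1.35 (SE 0.38, adjusted p = 0.0189). In both genes NET39 KD replicate 3 was low but still above the control arrays. In the fit without MB replicate 1 the SE was 0.24 for Rps3a1 and 0.23 for Rpl22l1, the adjusted p was 0.000123 for Rps3a1 and 0.000191 for Rpl22l1, and 10 genes were called.

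Rps3 had 12.45, 12.41 and 11.96 in NET39 KD against 11.58, 11.03 and 11.25 in control shRNA MTs (log2 ratio 0.99, adjusted p = 0.0175). Rpl30 had 11.34, 11.11 and 10.99 against 10.40, 9.79 and 10.34 in the control (log2 ratio 0.97, adjusted p = 0.00267), and its second probe gave 0.51 (adjusted p = 0.00982). Rpl13a had 10.36, 10.27 and 10.14 against 9.61, 9.01 and 9.40 in the control (log2 ratio 0.91, SE 0.14, adjusted p = 0.00013). In none of the 3 genes did KD and control arrays overlap.

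Rpl7a, with 11.27, 11.38 and 11.25 in NET39 KD against 10.82, 10.30 and 10.26 in the control (log2 ratio 0.84, adjusted p = 0.000555), Rpl36a (0.56), Rpl4 (0.55), Rps6 (0.52) and Rps19 (0.52) completed the calls. Rps6 had 12.56, 12.36 and 12.54 in NET39 KD and 12.09, 11.64 and 12.18 in the control. Rps19, which is mutated in the human anaemia Diamond-Blackfan, had 13.14, 13.12 and 13.27 in NET39 KD and 12.80, 12.55 and 12.63 in the control (adjusted p = 0.00519), but its second and dimmer probe had a log2 ratio of -0.02 (adjusted p = 0.966). Rplp0 was higher by 0.42 (adjusted p = 0.00426), short of the limit, with 9.10, 9.29 and 9.27 against 8.91, 8.93 and 8.57 in the control.

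The count in NET39 KD depended on single arrays. It was 6 without NET39 KD replicate 1, 16 without control shRNA replicate 1, 5 without control replicate 2 and 6 without control replicate 3. Against untransduced MTs in place of control shRNA MTs, Rpl13a (-0.23), Rps3 (-0.02) and Rps6 (-0.00) had ratios below 0 and were not called. Rpl7a was also lower there, with a mean of 11.30 in NET39 KD against 11.43 in untransduced MTs.

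Other markers moved with NET39 KD as well. Of 10 genes of dividing cells, 7 were called higher, with a summed signal of 2188 to 2285 in NET39 KD against 1037 to 1096 in control shRNA MTs and 14705 to 17507 in MBs. Of 5 fibroblast genes 4 were called higher, with sums of 3652 to 5373 in NET39 KD against 884 to 1040 in the control, and of 11 genes of undifferentiated myoblasts 4 were. The muscle differentiation sum was 91601 to 91712 in NET39 KD and 84867 to 100541 in the control. The part of these cells in the ribosomal protein result was not tested.

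In TMEM38A KD a single member, Rpl3l, was called higher and none lower, against 4.06% and 5.62% of all genes. The median of the 61 genes was 0.09 against 0.00, and it was -0.10 under median scaling, where the median of all genes was -0.14. KD arrays lay above control arrays for 7 genes (11.5%, against 19.0% of all genes) and below them for 2 (3.28%, against 20.8%). At the adjusted p alone 2 genes were higher, Rpl3l and Rps25 (0.44), against 8.05% of all genes, and 2 lower, Rpl21 (-0.31) and Rpl22 (-0.33), against 9.91%. Rpl13a had 9.26, 9.22 and 9.23 in TMEM38A KD against 9.61, 9.01 and 9.40 in the control, which overlapped. Without TMEM38A KD replicate 2 the count was 2. Fibroblast markers were lower in this line, with 4 of 5 called and sums of 423 to 467 in TMEM38A KD against 884 to 1040 in the control.

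WFS1 KD had 3 genes called higher and none lower, against 4.19% and 4.10% of all genes, with a median of 0.06 against -0.03 that turned to -0.12 under median scaling (all genes -0.15). They were Rpl3l, Rpl7a (11.17, 11.12 and 11.03 in WFS1 KD against 10.82, 10.30 and 10.26 in the control, log2 ratio 0.64, adjusted p = 0.00538) and Rpl29 (11.03, 11.23 and 11.12 against 10.79, 10.48 and 10.58, log2 ratio 0.51, adjusted p = 0.0215). In these 3 genes the groups did not overlap, as in 13 genes higher (21.3%, against 16.5%) and 4 lower (6.56%, against 23.2%). Rps3a1 had 10.91, 10.78 and 10.67 in WFS1 KD, all above the control, but its ratio of 1.13 had an adjusted p of 0.1. Fibroblast marker sums were 1681 to 2371 in WFS1 KD against 884 to 1040 in the control, with 1 of 5 called, and their part was not tested. Under median scaling no ribosomal protein gene was called higher and 1 was called lower, against 1.6% and 15.9% of all genes. In the deposited values only Rpl7a was called. Against untransduced MTs the ratios of Rpl7a (-0.32) and Rpl29 (-0.24) were below 0 and not called. In the fit without MB replicate 1 the adjusted p of Rps3a1 was 0.00135, Rps3 and Rpl22l1 passed with it, and 6 genes were called higher.

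TMEM214 KD had 3 genes called higher and none lower, against 5.18% and 4.20% of all genes, and a median of 0.20 against -0.02. Of the 61 ratios 48 were positive, and KD arrays lay above control arrays for 27 genes (44.3%, against 19.5% of all genes) and below for 3 (4.92%, against 22.0%). The called genes were Rpl22l1 (log2 ratio 1.21, adjusted p = 0.0352), Rpl7a (10.97, 10.92 and 11.06 in TMEM214 KD against 10.82, 10.30 and 10.26 in the control, 0.52, adjusted p = 0.0203) and Rpl29 (11.12, 11.12 and 11.13 against 10.79, 10.48 and 10.58, 0.51, adjusted p = 0.0226). Rps3a1 had 10.82, 10.70 and 11.03 in TMEM214 KD, with a ratio of 1.19 and an adjusted p of 0.083. In the fit without MB replicate 1 Rps3a1 (adjusted p = 0.000751) and Rps3 (0.000192) were called too, making 5 genes.

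Under median scaling 1 ribosomal protein gene was called higher in TMEM214 KD, against 4.94% of all genes. The calls of Rpl22l1 (adjusted p = 0.0523), Rpl7a (0.304) and Rpl29 (0.375) were lost. In the deposited values only Rpl22l1 was called, and against untransduced MTs the ratios of Rpl7a (-0.44) and Rpl29 (-0.25) were below 0. The count in TMEM214 KD was 0 without TMEM214 KD replicate 3, without control replicate 2 or without control replicate 3, 1 without TMEM214 KD replicate 1 and 6 without control replicate 1. As in NET39 KD, 7 of 10 genes of dividing cells and 4 of 5 fibroblast genes were called higher, with sums of 1687 to 1703 in TMEM214 KD against 1037 to 1096 in the control for the first and 3176 to 3305 against 884 to 1040 for the second. Of 11 muscle differentiation genes 5 were called lower, with sums of 69269 to 74027 in TMEM214 KD against 84867 to 100541 in the control. Their part in the ribosomal protein result was not tested.

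Whether the lines differed among themselves was asked with a moderated F over the 5 shRNA lines. It was passed by 14 of the 61 genes, a range of line means above 0.5 included, where 30.6% of all genes passed. The count was 9 without TMEM38A KD replicate 3. Among the 14, the largest F belonged to Rpl3l (58.6, adjusted p = 1.53e-08, range of line means 1.42), Rpl13a (16.6, 5.09e-05, range 1.02), Rpl7a (10.1, 0.000838, range 0.84), Rplp0 (8.76, 0.00169, range 0.53) and Rpl29 (7.93, 0.00271, range 0.58). For Rplp0 the line with the lowest levels was TMEM214 KD, with 8.75, 8.78 and 8.53, and the highest was NET39 KD.

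Between NET39 KD and TMEM38A KD 7 members were called, 6 of them higher in NET39 KD, where 16.9% of all genes were called. Rpl22l1 differed by 1.49 (adjusted p = 0.0057), Rpl3l by -1.42 (1.48e-08), Rpl13a by 1.02 (1.53e-05) and Rpl30 by 0.79 (0.00722). Fewer members were called in the other pairs of KD lines, with 3 between NET39 and WFS1 KD (11.9% of all genes), 1 between NET39 and TMEM214 KD (5.17%), 2 between TMEM38A and WFS1 KD (12.4%), 4 between TMEM38A and TMEM214 KD (15.2%) and 1 between WFS1 and TMEM214 KD (10.1%).

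Genes that act with the ribosomal proteins were described by lists. In myogenesis, where 16.4% of all genes were called lower and 14.6% higher, the genes of ribosome biogenesis and RNA polymerase I had a median log2 ratio of -0.49, with 20 of 43 called lower in MTs and 4 higher. Nop56 and Gar1, which belong to the particles that modify ribosomal RNA, had log2 ratios of -1.60 (adjusted p = 2.97e-09) and -1.58 (1.52e-09), and Npm1, a nucleolar chaperone, had -1.26 (6.83e-06). Translation factors and other TOP mRNAs had 7 of 29 called lower and 4 higher, among them Eif4a1 (-1.01) and Eif4a2 (1.00), helicases that unwind the mRNA start and were called in opposite directions. Mitochondrial ribosomal proteins, which form a separate ribosome, had 8 of 74 lower and 5 higher with a median of -0.12. Of 16 genes of mTORC1 and MYC control 6 were called higher and 2 lower, with no single direction by role. Those higher included Mxd1 (2.45, adjusted p = 1.68e-10), a MYC antagonist, Tsc1 (1.15, 0.000387), an inhibitor of mTORC1, Sesn1 (0.67, 0.00983) and Tsc2 (0.54, 0.0199). Rptor (0.78, 1.05e-06), a subunit of mTORC1, and Larp1 (0.60, 0.00309) were higher too. Those lower were Myc itself (-0.57, 0.00019) and Ddit4 (-0.66, 0.03), another inhibitor of mTORC1.

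In NET39 KD the biogenesis list had 3 of 43 called higher, against 4.95% of all genes, and none lower, against 4.39%. Its median was 0.19, and Npm1 (0.69, adjusted p = 0.00938), Gar1 (0.58) and Brix1 (0.52) were the genes called. Translation factors had 4 of 29 called higher, Eif4b (1.05, adjusted p = 0.016), Tpt1 (0.94), Eef1b2 (0.77) and Eif3h (0.55), and none lower. Mitochondrial ribosomal proteins had a median of -0.03 with 2 of 74 called higher and none lower. In TMEM38A KD, Eef1a2, the elongation factor form of muscle and neurons, was higher by 1.86 (adjusted p = 3.11e-11). There 5 of 43 biogenesis genes were called higher, against 4.06% of all genes. The median of the biogenesis genes was 0.19 and became -0.17 under median scaling, where the median of all genes was -0.14. The 16 genes of mTORC1 and MYC control went both ways in the KDs. There 1 was called higher and 1 lower in both NET39 and TMEM38A KD, 2 and 2 in WFS1 KD and 4 and 2 in TMEM214 KD. Eif4ebp1 was called higher and Mxd1 lower in TMEM38A, WFS1 and TMEM214 KD. Mtor, the kinase of mTORC1, was called lower in NET39 (-0.55), WFS1 (-0.51) and TMEM214 KD (-0.79) than in control shRNA MTs. In TMEM38A KD Mtor had -0.49 (adjusted p = 0.0024), just short of the limit. These comparisons share the control arrays, in which Mtor was itself higher than in untransduced MTs, at a mean of 8.90 against 8.31 (log2 ratio 0.59, adjusted p = 0.000505).

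**Figure D5:**
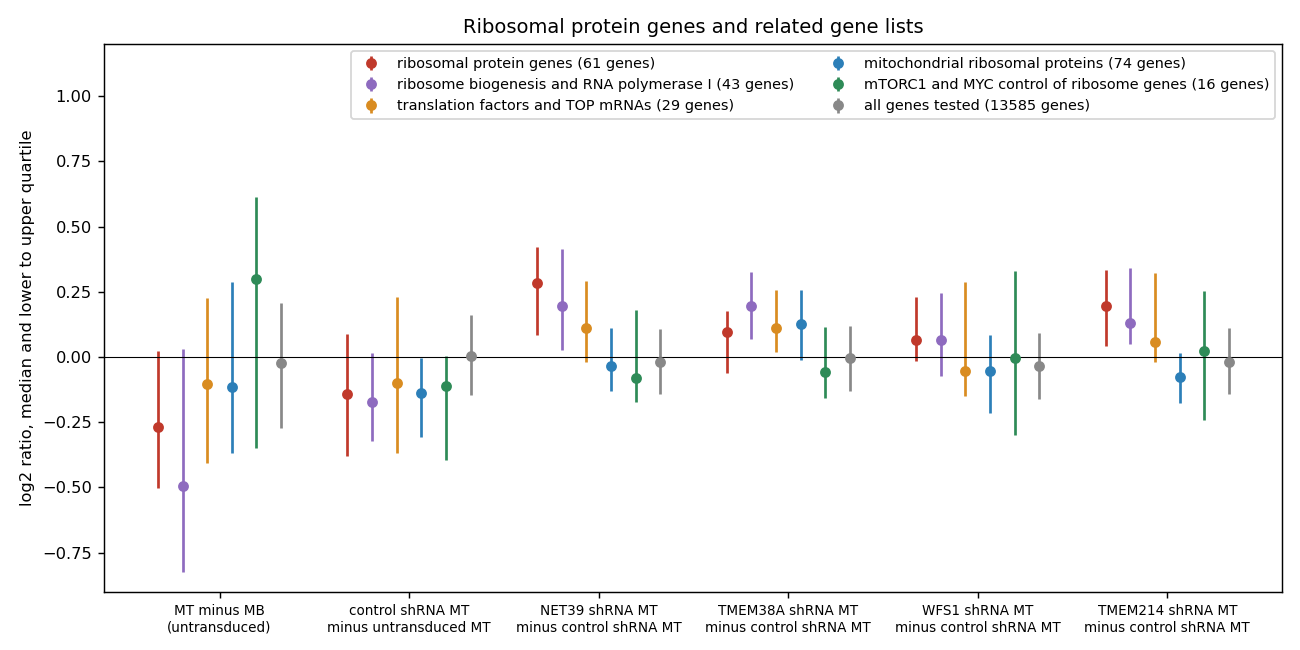
Median log2 ratio (points) and lower to upper quartile (lines) of the ribosomal protein genes, 4 related lists and all genes tested, in 6 comparisons. In MT minus MB the ribosomal proteins (-0.27) and the biogenesis genes (-0.49) lie lowest, and in NET39 KD minus control the ribosomal proteins lie highest (0.28).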

How the data were processed

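Per the file headers, the authors' scanner table gives intensity for each probe on 21 arrays before any normalization, without detection p-values. A second deposited table gives log2 values that the authors quantile-normalized, used here as an alternative. From the intensities, normexp background correction (offset 50), quantile normalization and log2 were computed with limma 3.58.1 in R 4.3.3. A probe was kept if above a level per array (the mode of the log2 signals plus a normal quantile for p of 0.05) in at least 3 arrays, which left 27870 of 45281 probes. Of these, 22729 had 1 gene symbol in the platform annotation, and the brightest on average stood for each gene. For 20 members over 1 probe was kept. Precision is limited by the number of arrays, and the median SE of a member's log2 ratio was 0.12. The study calls the 3 replicates biological, but no source used here says that they were separate cultures, so p-values measure the spread between these samples.

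The limma fit had 1 coefficient for each of the groups and used every array. A probe is compared only with itself across arrays. Replicate numbers deviated together in myogenesis (correlation of same-numbered deviations 0.129 to 0.247), transduction (0.125 to 0.174) and NET39 KD (0.165 to 0.247), but not in the other KDs, and a replicate block was an alternative. Others were median scaling, cyclic loess, offset 16, no filter or a filter at 6 arrays, the mean of probes, array weights, adjusted p alone, another reference, and leaving out each replicate. Named genes were paralogues and partners, landmarks, the 5 called genes with the largest ratio in each direction and the largest F. Members and lists were chosen with earlier results of these data known. Lists have counts and medians only.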

Additional observations from a re-analysis of the deposited data

Results flagged for a closer look

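The KD lines differed from each other, by limma's test of the difference itself, in the following numbers of ribosomal protein genes. There were 7 between NET39 and TMEM38A KD, with Rpl22l1 the largest at 1.49, and 3 between NET39 and WFS1 KD, with Rpl3l at -1.09. There was 1 between NET39 and TMEM214 KD, Rplp0 at 0.53. Between TMEM38A and WFS1 KD there were 2, with Rpl29 at -0.58, and between TMEM38A and TMEM214 KD there were 4, with Rpl22l1 at -1.35. Between WFS1 and TMEM214 KD there was 1, Rpl3l at 0.91. Each ratio is the first line of the pair minus the second on the log2 scale. Among all genes the shares called were 16.9%, 11.9%, 5.17%, 12.4%, 15.2% and 10.1% in the same order of pairs.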

How the results depend on the processing

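Counts of ribosomal protein genes called changed by over 1.5 times under these settings. Median scaling gave 1 higher and 39 lower in myogenesis, 47 and 0 in transduction, 4 higher in NET39 knockdown, 1 lower in TMEM38A, 0 higher and 1 lower in WFS1 and 1 higher in TMEM214 knockdown. Of all genes it called 4.84% higher and 22.5% lower in myogenesis, and 48.3% and 0.0736% in transduction. It called 4.67% higher in NET39 and 4.94% higher in TMEM214 knockdown. In TMEM38A knockdown it called 13% lower, and in WFS1 knockdown 1.6% higher and 15.9% lower. Cyclic loess gave 37 lower in myogenesis, 0 higher and 17 lower in transduction, 1 lower in NET39 and 5 higher in TMEM214 knockdown. The deposited log2 values gave 1 higher in both WFS1 and TMEM214 knockdown, and an offset of 16 gave 1 lower in NET39 and 5 higher in TMEM214 knockdown. The mean of probes gave 2 higher in transduction. Array weights gave 5 higher in myogenesis and 6 in WFS1 knockdown. With the adjusted p alone there were 5 higher and 28 lower in myogenesis, 17 lower in transduction, 24 and 1 in NET39, 2 and 2 in TMEM38A, 5 and 1 in WFS1, 11 higher in TMEM214 knockdown and 30 by the F. Of all 13585 genes, the adjusted p alone gave 2808 higher and 3376 lower in myogenesis and 1385 lower in transduction. It gave 1050 higher and 1294 lower in NET39 and 1093 and 1346 in TMEM38A knockdown. In WFS1 knockdown it gave 957 and 1343, and in TMEM214 knockdown 1075 higher. Against untransduced MTs there were 2 lower in NET39, 7 higher and 6 lower in TMEM38A, 7 and 3 in WFS1 and 8 and 4 in TMEM214 knockdown. Without MB replicate 1, chosen after seeing the data for the knockdowns, 6 were higher in WFS1 and 5 in TMEM214 knockdown. Shares of all genes under the other settings are not given here, so those counts cannot be set against them. The causes were not tested.

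Leaving out each replicate in turn gave 3 to 7 higher and 12 to 23 lower in myogenesis, 0 to 7 and 4 to 10 in transduction, 5 to 16 higher in NET39, 1 to 2 in TMEM38A, 2 to 6 in WFS1, 0 to 6 in TMEM214 knockdown and 9 to 17 by the F. The replicate block gave 5 higher in TMEM214 knockdown, where not every same-numbered pair deviated together (correlation -0.0464 to 0.360). It gave 3 higher and 16 lower in myogenesis, 4 and 8 in transduction, 10 higher in NET39 knockdown and 15 by the F, and changed no other count by over 1.5 times.

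Direction reversed in transduction under median scaling for Rpl13a (0.26), Rpl22 (1.31), Rpl24 (0.63), Rpl29 (0.65), Rpl3 (1.00), Rpl36al (1.14), Rpl7a (0.46), Rpl7l1 (0.98), Rplp0 (0.93), Rps3 (0.41), Rps4x (0.88) and Rps6 (0.87). Against untransduced MTs it reversed, among others, in NET39 knockdown for Rpl13a (-0.23), Rps3 (-0.02) and Rps6 (-0.00). It did so in WFS1 for Rpl13a (-0.84), Rpl29 (-0.24) and Rpl7a (-0.32), and in TMEM214 for Rpl13a (-0.67), Rpl29 (-0.25) and Rpl7a (-0.44). By group means it also reversed for Rpl7a in NET39 knockdown (11.30, against 11.43 in untransduced MTs). The same held for Rps3 in WFS1 (11.95) and TMEM214 knockdown (12.08), against 12.29 in untransduced MTs. Of the other values of named genes, 1878 kept their direction and side of the threshold. Members near background, such as Rpl3l in MBs, have compressed ratios.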
